A study of Rattus norvegicus with 30 samples.

Results

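The Cyp2b genes of the rat encode cytochrome P450 enzymes of one subfamily. Its members here were all array probes whose designed transcript maps to Cyp2b2, Cyp2b3, Cyp2b12, Cyp2b15 or Cyp2b21, without regard to signal. That gave 5 of the 15170 named genes on the arrays, held by 7 of 30367 probes, 2 each for Cyp2b2 and Cyp2b3 and 1 each for Cyp2b12, Cyp2b15 and Cyp2b21. Cyp2b1, the near-identical partner of Cyp2b2, was not analysed here. Whether a probe named for one Cyp2b gene also takes up transcripts of another was not tested.

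Liver RNA of 30 male animals was hybridised to 1-colour Agilent rat arrays, 1 array per animal. The animals were Crl:CD(SD) rats (4 on control diet, 4 on PB), CAR KO rats (4 and 4) and chimeric mice whose livers carry rat hepatocytes (7 and 7). Control animals ate a diet with 0 ppm PB and treated animals one with 1000 ppm PB, each for 7 days. PB is phenobarbital, and CAR KO rats carry a knockout of the constitutive androstane receptor, the product of Nr1i3. The labels give no age, no host strain and no share of mouse cells left in the chimeric livers, and they do not describe the deleted part of Nr1i3 or the stock behind the CAR KO rats. The comparisons ask how PB changed each Cyp2b gene in each kind of animal, and how far these changes differed between the kinds.

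Cytochrome P450 enzymes of the CYP2B subfamily sit in the endoplasmic reticulum of hepatocytes and oxidise drugs, steroids and other lipophilic compounds. Cyp2b genes are the classical targets of phenobarbital in rodent liver. The drug sends CAR into the nucleus, where CAR pairs with the retinoid X receptor and binds enhancers of these genes. Members differ in where they are made: Cyp2b2 is an inducible liver form, Cyp2b3 is known as a liver form made without an inducer, Cyp2b21 was described from oesophagus and Cyp2b12 from sebaceous glands.

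In the RefSeq table of assembly GRCr8 the genes lie side by side on chromosome 1, in the order Cyp2b1, Cyp2b2, Cyp2b3, Cyp2b21, Cyp2b12, Cyp2b15, followed by Cyp2g1 and the Cyp2a genes, with further Cyp2b-related and unnamed genes between some of them. The start regions of 3 of them are shown because 2 of these genes, Cyp2b2 and Cyp2b21, rose on PB, while the gene between them, Cyp2b3, did not pass the test. Each window runs from 250 bases before to 50 bases after the start, in the GRCr8 RefSeq table, 5′ to 3′. Capitals mark matches on either strand to AGGTCA, a nuclear receptor half-site, or to TTGCNNAA, a C/EBP-type site, which did not overlap one another. Both patterns were chosen after the sequences were seen.
Cyp2b2 (chr1:90722031-90722330, plus strand): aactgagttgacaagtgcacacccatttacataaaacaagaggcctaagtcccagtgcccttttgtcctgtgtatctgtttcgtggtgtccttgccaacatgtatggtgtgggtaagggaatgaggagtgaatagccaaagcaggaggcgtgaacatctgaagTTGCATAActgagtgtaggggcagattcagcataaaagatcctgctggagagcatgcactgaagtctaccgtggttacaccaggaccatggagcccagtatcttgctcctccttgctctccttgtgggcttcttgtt
Cyp2b21 (chr1:91042703-91043002, minus strand): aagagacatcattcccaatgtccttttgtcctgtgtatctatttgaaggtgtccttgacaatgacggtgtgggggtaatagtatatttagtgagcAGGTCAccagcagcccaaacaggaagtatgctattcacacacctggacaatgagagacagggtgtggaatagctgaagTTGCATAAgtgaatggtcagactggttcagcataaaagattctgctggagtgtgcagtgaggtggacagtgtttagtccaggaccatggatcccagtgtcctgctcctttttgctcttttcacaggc
Cyp2b3 (chr1:90780242-90780541, plus strand): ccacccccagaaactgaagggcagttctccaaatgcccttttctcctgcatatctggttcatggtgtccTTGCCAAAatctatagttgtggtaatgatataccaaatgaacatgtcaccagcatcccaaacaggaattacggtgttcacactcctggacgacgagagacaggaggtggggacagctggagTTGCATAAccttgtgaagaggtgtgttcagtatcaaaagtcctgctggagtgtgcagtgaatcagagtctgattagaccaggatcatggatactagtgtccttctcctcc

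The C/EBP-type letters lie at -87 in Cyp2b2, at -77 in Cyp2b21, and at -181 and -60 in Cyp2b3, counted from the start. They also occur in the windows of Cyp2b15 and Cyp2b12, and in 10.6% of the 33469 rat promoter windows of this length. The half-site letters occur in the windows of Cyp2b21 (at -155), Cyp2b15 and Cyp2b12 and not in those of Cyp2b2 and Cyp2b3, against 16.2% of all windows. Neither pattern set Cyp2b2 and Cyp2b21 apart from the other members. Over aligned bases, the Cyp2b2 window was 77.6% identical to that of Cyp2b21 and 71.3% identical to that of Cyp2b3, and the closest pair was Cyp2b15 and Cyp2b12 at 92.7%. The distal enhancer described for Cyp2b2 lies further upstream than this window.

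Levels are given as log2 of the scanner signal minus the 75th percentile of the same array, so 0 equals that percentile and 1 unit is a 2-fold step. Probes differ in brightness, so levels are compared only within a probe. A probe counts as measured on an array where the scanner software called it well above background. That percentile's signal was 414 or more on rat arrays and 197 to 318 on chimeric arrays, and 50.8% to 67% of probes were measured. All 10 hepatocyte markers were measured on every array, and their summed log2 level spanned 11.28 to 11.78 over the 6 groups. The summed log2 level of 8 Kupffer cell and macrophage markers was 5.39 to 5.69 in SD rats, 4.61 to 5.63 in CAR KO rats, 3.30 to 3.59 in chimeric controls and 2.28 to 2.97 in chimeric PB animals. In chimeric mice 5 of the 8 were measured on every array and Marco on none. In such bulk RNA, fewer cells of a type and less RNA per cell cannot be told apart. How well transcripts of mouse host cells bind these rat probes was not tested, so low chimeric readings need not mean fewer cells.

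SD and CAR KO rats each filled a slide of their own, so model and slide cannot be told apart in any comparison of levels between them, and each diet had its own row of the slide. The 7 chimeric controls shared slide 1 with PB replicate 1, and the other chimeric PB arrays lay on slide 2. No slide held both chimeric and rat arrays, so model and slide cannot be told apart in levels compared between these either. Both probes of Nr1i3 were measured on every rat array. On control diet probe A_64_P109497 read 0.92, 1.88, 0.76 and 1.14 in SD rats and 1.13, 1.30, 0.69 and 1.35 in CAR KO rats. Probe A_64_P109496 read -0.43, 0.37, -0.35 and -0.19 in SD rats and 0.06, 0.08, -0.61 and 0.24 in CAR KO rats. On PB the first probe read 0.31, 1.03, 0.62 and 0.24 in SD rats and 0.50, -0.21, 1.04 and 1.15 in CAR KO rats, and the second -0.97, -0.16, -0.57 and -1.56 against -0.74, -1.17, -0.05 and 0.09. The groups overlapped on both diets and neither probe passed the test between the models, with differences on control diet of -0.05 ± 0.304 and 0.09 ± 0.325 (SE; limma, adjusted p = 0.907 and 0.852). No source used here says where the probes lie relative to the deletion, so these values do not check the knockout labels.

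In SD rats PB raised Cyp2b2 and Cyp2b21, and the probes of Cyp2b3 and Cyp2b15 did not pass the test. Of the 6 Cyp2b probes tested, 3 rose and 0 fell, while 4.14% of all 19040 probes tested changed (2.42% rose and 1.72% fell). The median log2 change of the 6 probes was 1.96, against -0.02 over all probes tested.

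Cyp2b2, probe A_44_P311324, stood at 2.84, 3.21, 2.84 and 2.88 in SD controls and at 6.89, 7.11, 7.35 and 6.56 on PB. The lowest PB array lay 3.35 above the highest control. The rise was 4.03 ± 0.138 (SE), or 16.4-fold, with adjusted p = 8.58e-10 by limma with Benjamini-Hochberg adjustment over all probes tested, as for every adjusted p of a probe here.

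The other Cyp2b2 probe, A_64_P006590, stood at 0.96, 2.61, 1.05 and 1.34 in SD controls and at 8.41, 8.56, 8.78 and 8.08 on PB. It rose by 6.96 ± 0.282 (SE), 125-fold, with adjusted p = 4.57e-09. Control replicate 2 lay above the other 3 controls on both probes, and its Cyp2b21 and Nr1i3 readings were also the highest of that group. Without it the rises were 4.12 and 7.34.

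Cyp2b21, probe A_44_P163271, was close to the limit of measurement in SD controls, with readings of -6.84, -4.37, -7.20 and -6.17, of which only replicate 2 (-4.37) was well above background. On PB all 4 arrays measured it, at 2.01, 2.20, 2.64 and 1.54. The fitted rise was 8.24 ± 0.532 (SE; adjusted p = 9.77e-07), a size that rests in part on 3 control readings not well above background. Without control replicate 2 it was 8.83, and with normexp background correction, which adds an offset of 50 to every signal, it was 4.96 ± 0.182 (adjusted p = 1.53e-10).

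The remaining members showed no such step in SD rats. Cyp2b3 was measured on every array. Its probe A_44_P205599 read 7.99, 7.92, 7.94 and 7.96 in controls and 7.70, 7.89, 7.80 and 7.88 on PB, a difference of -0.13 ± 0.075 (SE; adjusted p = 0.342). Probe A_64_P018626 read 6.25, 6.46, 6.37 and 6.36 against 6.13, 6.28, 6.20 and 6.38, a difference of -0.11 ± 0.0741 (adjusted p = 0.427). All 4 PB arrays of the first probe lay below its 4 controls, and the second probe's groups overlapped. The 95% intervals were -0.30 to 0.03 and -0.27 to 0.05.

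Cyp2b15 was dim. Its readings were -4.56, -4.64, -4.47 and -4.77 in SD controls and -4.74, -5.45, -4.72 and -5.30 on PB, where replicates 2 and 4 were not well above background. The difference of -0.44 ± 0.186 (SE) did not pass, with adjusted p = 0.201. Cyp2b12, the sebaceous gland form, was measured on 3 of the 30 arrays (SD PB replicate 2 at -5.37, CAR KO PB replicate 3 at -5.52 and chimeric control replicate 5 at -5.11) and was not tested in any comparison.

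**Figure D1:**
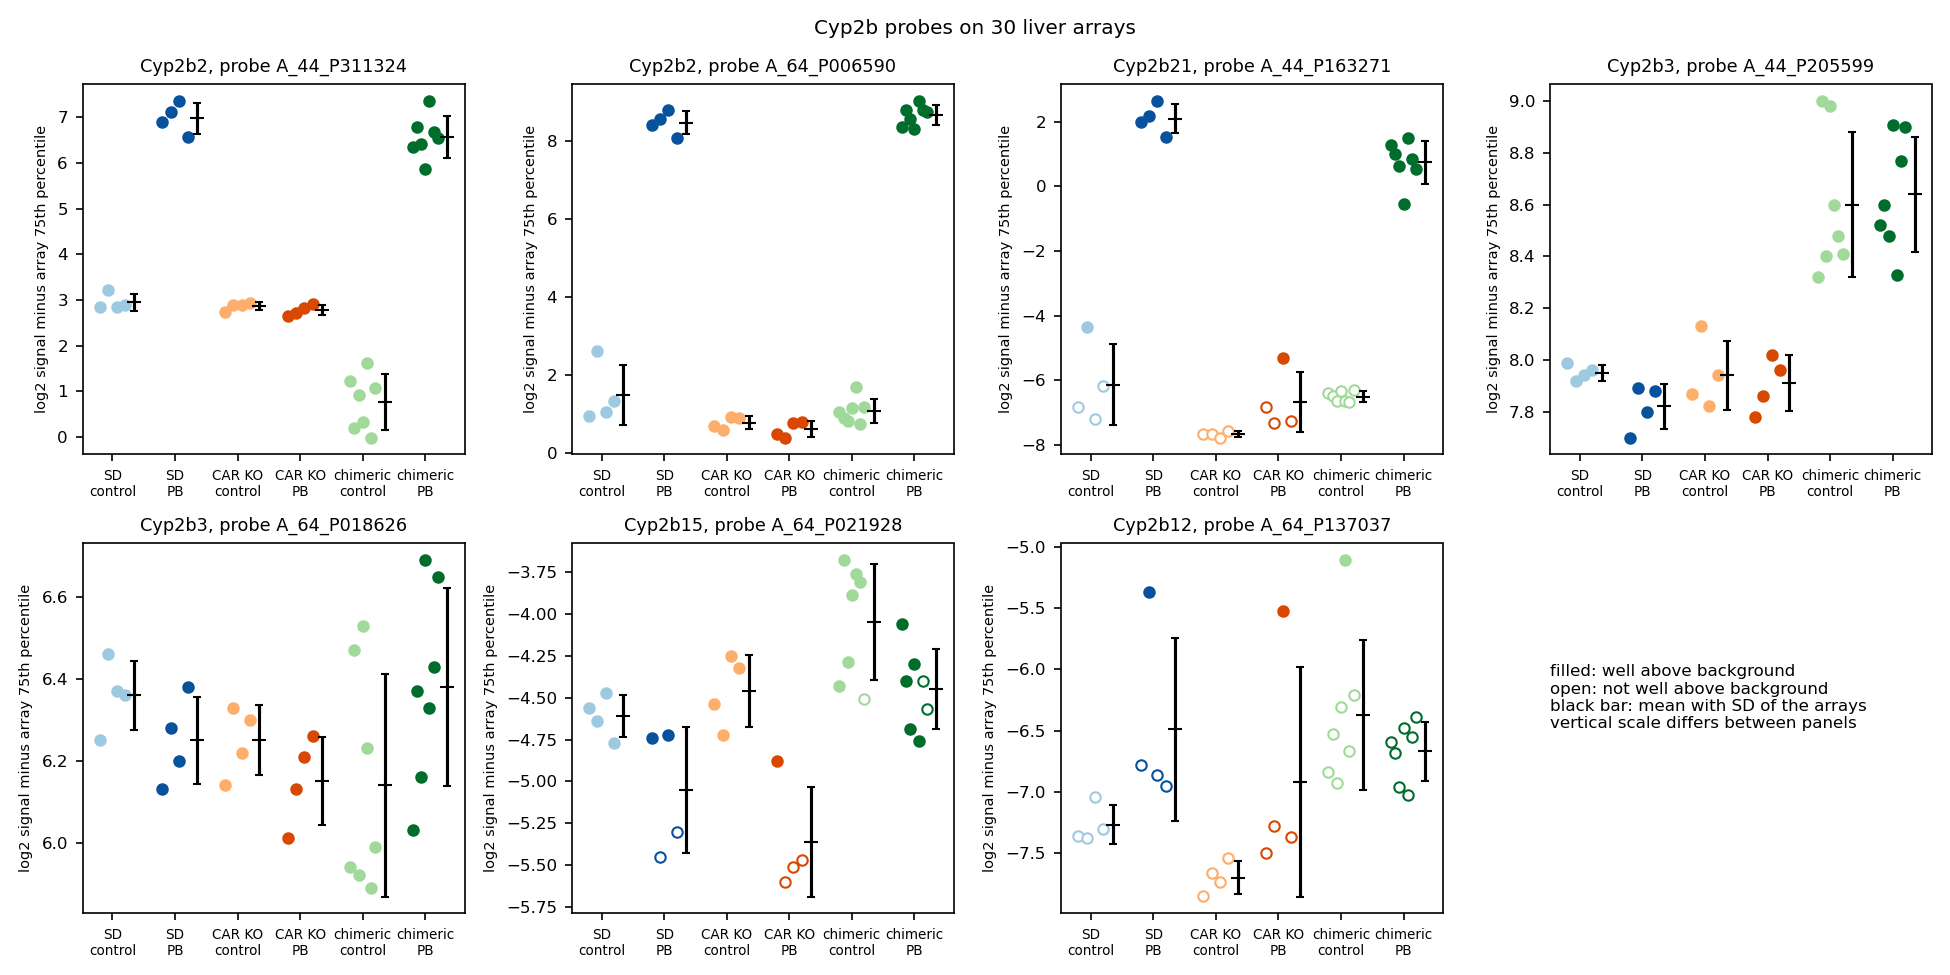
Level of each of the 7 Cyp2b probes (vertical axis, log2 signal minus the array's 75th percentile) on each of the 30 arrays, by group on the horizontal axis; filled points are arrays where the probe was well above background, open points are not, and black bars are group means with SD. Both Cyp2b2 probes and Cyp2b21 stand high on PB in SD rats and chimeric mice and not in CAR KO rats, while Cyp2b3 lies between 5.89 and 9.0 in all groups.

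In CAR KO rats none of the Cyp2b probes passed the test for PB. Of 5 tested, 0 rose and 0 fell by limma, and 1, Cyp2b15, had an unadjusted p under 0.05. By comparison, 0.153% of the 19642 probes tested passed the adjusted threshold in these rats (0.0458% rose and 0.107% fell). The share of all probes at an unadjusted p under 0.05 was not counted here or below, so such counts have no background. The median log2 change of the 5 was -0.10, against -0.02 over all probes tested.

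Cyp2b2 probe A_44_P311324 read 2.74, 2.89, 2.90 and 2.94 in CAR KO controls and 2.65, 2.72, 2.83 and 2.91 on PB. Probe A_64_P006590 read 0.70, 0.58, 0.93 and 0.91 in controls and 0.50, 0.40, 0.78 and 0.80 on PB. The groups overlapped on both probes. The differences were -0.09 ± 0.138 (SE; 95% interval -0.38 to 0.21; adjusted p = 0.807) and -0.16 ± 0.283 (-0.76 to 0.45; adjusted p = 0.837).

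Cyp2b21 was not measured on any CAR KO control array, where it read -7.66, -7.68, -7.78 and -7.57. On PB it read -6.83, -7.32, -5.33 and -7.26, and only replicate 3 (-5.33) was well above background, so the probe was not tested there. Cyp2b3 differed by -0.03 ± 0.0753 and -0.10 ± 0.0743 (SE; adjusted p = 0.871 and 0.557).

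Cyp2b15 in CAR KO rats read -4.54, -4.72, -4.25 and -4.32 in controls and -4.88, -5.60, -5.51 and -5.47 on PB. All 4 PB arrays lay below all controls, and only replicate 1 of the PB group was well above background. The difference of -0.91 ± 0.186 (SE) missed the threshold, with adjusted p = 0.0617. Without that replicate it passed (adjusted p = 0.0353), as it did with no filter on dim probes (0.0488) and with array weights (0.0293). Over the settings tried, single arrays left out apart, the difference ran from -0.91 to -0.16, and adjusted p by limma reached 0.239.

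The PB response itself differed between CAR KO and SD rats for Cyp2b2 and Cyp2b21. Of 6 probes tested for this difference, 3 passed, each fitted as lower in CAR KO rats. Of all 19947 probes tested, 0.476% passed in either direction (0.391% lower and 0.0852% higher). For Cyp2b2 the difference, CAR KO minus SD, was -4.12 ± 0.196 and -7.12 ± 0.401 log2 units (SE; adjusted p = 1.01e-07 and 5.05e-07). For Cyp2b21 it passed with adjusted p = 0.000604. It has no measured size, and its direction is only that of the fit, because no CAR KO control array measured the probe. The differences for Cyp2b3 were 0.10 ± 0.107 and 0.01 ± 0.105 (adjusted p = 0.743 and 0.976), and that for Cyp2b15 was -0.46 ± 0.264 (adjusted p = 0.488). The median over the 6 was -2.29, against -0.01 over all probes tested.

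On control diet the levels of Cyp2b3 and of 1 Cyp2b2 probe in CAR KO rats lay near those of SD rats. None of 5 probes tested passed (0 by limma, 1 at an unadjusted p under 0.05), although 33.8% of the 19850 probes tested differed between the models (13.7% higher and 20.2% lower in CAR KO rats). Cyp2b2 differed by -0.08 ± 0.138 on probe A_44_P311324 (SE; adjusted p = 0.69) and by -0.71 ± 0.283 on probe A_64_P006590 (adjusted p = 0.0667). The second value became -0.34 (adjusted p = 0.13) without SD control replicate 2, and it passed the test without SD control replicate 1 or 3, with normexp background correction and with median centring. On probe A_64_P006590 every CAR KO control, 0.58 to 0.93, lay below the lowest SD control, 0.96. Cyp2b3 differed by -0.01 and -0.11 (adjusted p = 0.921 and 0.274) and Cyp2b15 by 0.15 (adjusted p = 0.562).

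On PB diet 3 of 5 probes were lower in CAR KO than in SD rats and 0 were higher, beside 41.6% of 18539 probes tested in either direction (25.6% lower and 16% higher). Cyp2b2 differed by -4.20 ± 0.138 and -7.83 ± 0.282 log2 units (SE; adjusted p = 3.93e-11 and 7.27e-11). Cyp2b21 differed by -8.78 ± 0.532 (adjusted p = 1.61e-08), with 1 of 4 CAR KO arrays measured, and by -5.18 ± 0.182 with normexp background correction (adjusted p = 8.71e-12). Cyp2b3 differed by 0.09 and -0.10 (adjusted p = 0.363 and 0.321).

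In chimeric mice PB again raised the readings of the Cyp2b2 and Cyp2b21 probes. Whether these rat probes also take up transcripts of the mouse host was not tested. Of 6 probes tested 3 rose and 0 fell. Changes were common on these arrays, where 41.7% of 15998 probes tested changed (19.2% rose and 22.5% fell), so a count of members is read against a high background. The summed level of the Kupffer cell and macrophage markers also differed between the diets, at 3.30 to 3.59 in controls and 2.28 to 2.97 on PB, and that of 6 lymphocyte markers, 1 measured on every array and 4 on none, had a median of -2.20 in controls and -2.73 on PB. The other lists overlapped between these diets. Their medians in controls and on PB were 4.15 and 4.04 for endothelial, and 2.15 and 2.06 for stellate and fibroblast markers. They were 1.1 and 0.78 for cholangiocyte, and 0.64 and 0.85 for erythroid markers. The part of any of these cell types in the results was not tested. The median log2 change of the 6 was 3.02, against 0.07 over all probes tested.

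Cyp2b2 probe A_44_P311324 ran from -0.01 over a median of 0.92 to 1.63 in the 7 chimeric controls, and from 5.86 over 6.54 to 7.35 in the 7 PB animals. Probe A_64_P006590 ran from 0.74 over 1.05 to 1.70 in controls and from 8.31 over 8.73 to 9.01 on PB. The lowest PB array lay 4.23 and 6.62 above the highest control on the 2 probes. The rises were 5.81 ± 0.264 (SE), 55.9-fold, and 7.57 ± 0.154, 190-fold (adjusted p = 1.89e-09 and 5.61e-14).

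Cyp2b21 was not well above background in any of the 7 chimeric controls, where it read -6.68 to -6.32 with a median of -6.50. On PB all 7 arrays measured it, from -0.54 over 0.84 to 1.51. The bound on its rise was 81.3-fold, the PB mean set against the lowest signal of any measured probe on each control array (adjusted p = 3.56e-11). Such a bound is approximate, since Cyp2b15 read -4.51 in chimeric control replicate 7 without being measured, above that array's lowest signal of -5.49. With normexp background correction the fitted rise was 3.23 log2 units (adjusted p = 2.03e-08), smaller than that bound.

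With slide as a block, the rises of the Cyp2b2 probes were 5.59 ± 0.542 and 7.27 ± 0.3 (SE; adjusted p = 0.000125 and 1.22e-08), and Cyp2b21 passed with adjusted p = 7.19e-07. With the block the contrast rests on PB replicate 1, the only PB array on the controls' slide, so the values within slide 1 are the same estimates by construction. With the block 1.06% of all probes tested passed.

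Cyp2b3 and Cyp2b15 did not pass in chimeric mice. Cyp2b3 ran from 8.32 over 8.48 to 9.0 in controls and from 8.33 over 8.60 to 8.91 on PB on probe A_44_P205599, and from 5.89 over 5.99 to 6.53 against 6.03 over 6.37 to 6.69 on probe A_64_P018626. The groups overlapped, with differences of 0.04 ± 0.14 and 0.24 ± 0.142 (SE; adjusted p = 0.819 and 0.19). Cyp2b15 was measured on 6 of 7 control and 5 of 7 PB arrays, from -4.51 over -3.89 to -3.68 and from -4.76 over -4.40 to -4.06. Its difference was -0.40 ± 0.159 (adjusted p = 0.0539), and -0.01 with slide as a block. Among the settings tried, Cyp2b3 came to pass in 1 on probe A_44_P205599 and in 2 on probe A_64_P018626. Cyp2b15 came to pass in 1 setting, and in 3 of 14 fits with a single array left out.

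**Figure D2:**
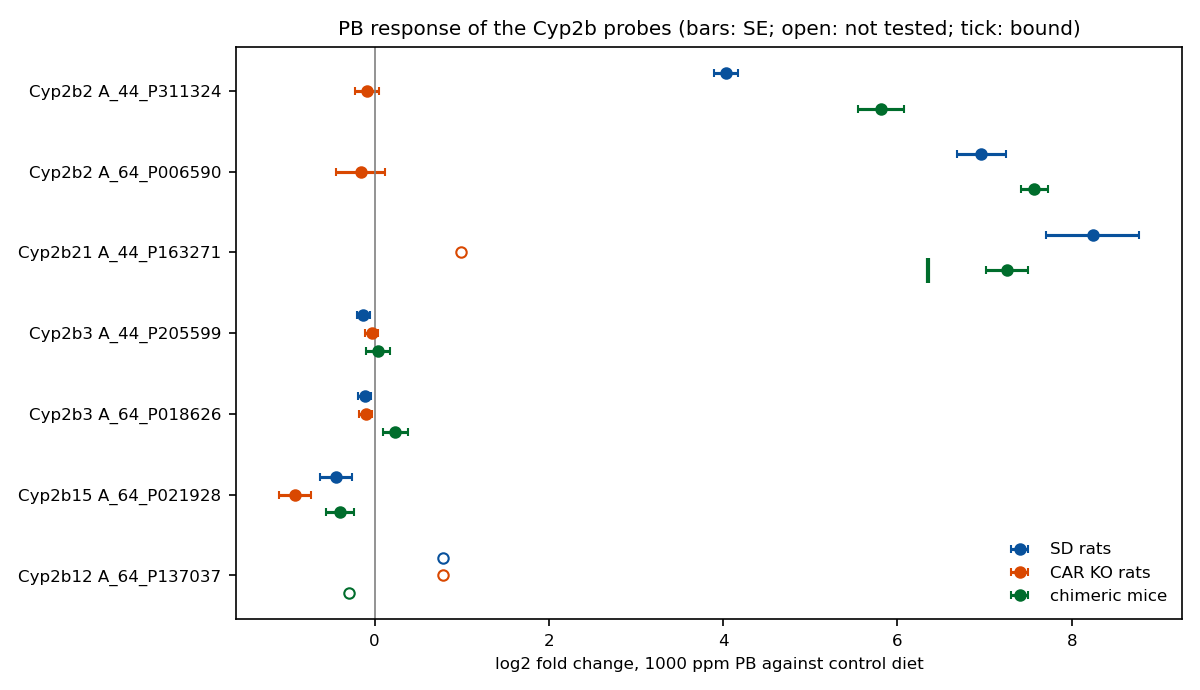
Log2 change on PB of each Cyp2b probe (horizontal axis; filled points are limma estimates with SE, open points are differences of group means for probes not tested, and the tick is a bound) in SD rats, CAR KO rats and chimeric mice. The 3 probes of Cyp2b2 and Cyp2b21 lie at 4.03 to 8.24 in SD rats and at 5.81 to 7.57 in chimeric mice. The Cyp2b2 probes lie at -0.16 and -0.09 in CAR KO rats. Cyp2b21 in chimeric mice is a fitted value, with an approximate bound of 6.35.

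**Figure D3:**
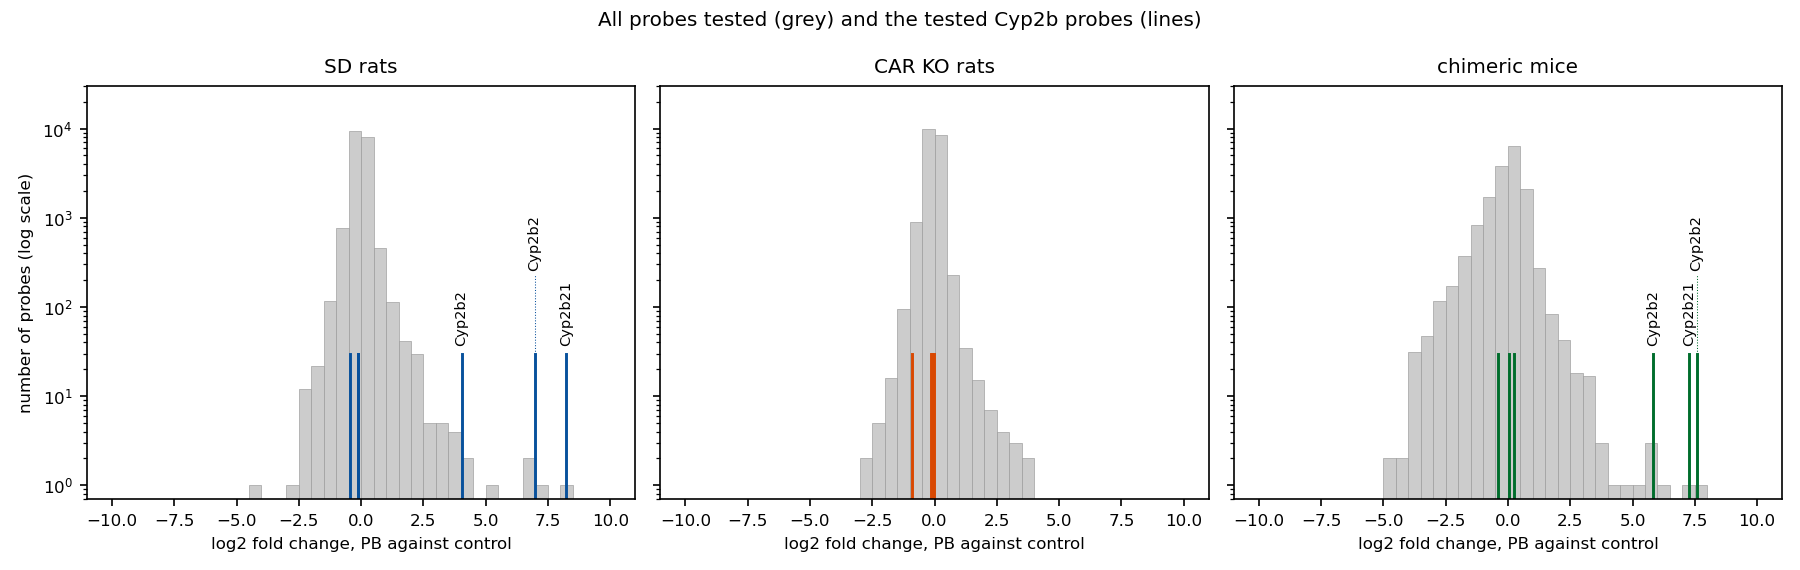
Number of probes (vertical axis, log scale) by log2 change on PB (horizontal axis) over all probes tested in each kind of animal, Cyp2b probes included, with coloured lines at the Cyp2b probes tested. Cyp2b2 and Cyp2b21 lie in the far upper tail in SD rats and chimeric mice, and the 5 Cyp2b probes tested in CAR KO rats lie between -0.91 and -0.03.

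The Cyp2b2 response on probe A_44_P311324 was larger in chimeric mice than in SD rats. Of 6 probes tested, this 1 was higher and 0 were lower, beside 17.9% of 19311 probes tested in either direction (6.12% higher and 11.8% lower). The difference was 1.77 ± 0.347 (SE; 95% interval 1.06 to 2.49; adjusted p = 0.000962). The other Cyp2b2 probe differed by 0.61 ± 0.315 (-0.04 to 1.25; adjusted p = 0.192), and Cyp2b21 did not pass (adjusted p = 0.247; no size is given, since no chimeric control measured it). Cyp2b3 differed by 0.18 and 0.35 (adjusted p = 0.535 and 0.182) and Cyp2b15 by 0.04 (adjusted p = 0.931). The median over the 6 was 0.26, against 0.08 over all probes tested.

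That result did not hold under every setting. With slide as a block in the chimeric arrays, the difference on probe A_44_P311324 was 1.56 ± 0.507, short of the threshold (adjusted p = 0.323). Without SD control replicate 2 the count was 2, the other probe being that of Cyp2b21, which then no control array of either kind had measured, so that call carries no size or direction. With each array centred on the hepatocyte markers, the Cyp2b2 difference was 1.97 (adjusted p = 0.000964).

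The starting level of that probe differed too. On control diet probe A_44_P311324 was lower in chimeric mice than in SD rats, with a difference of -2.18 ± 0.245 log2 units (SE; adjusted p = 1.36e-08), and the highest of 7 chimeric controls, 1.63, lay below the lowest SD control, 2.84. The other probe, at -0.42 ± 0.223, missed the threshold (adjusted p = 0.0926). It was -0.04 without SD control replicate 2 (adjusted p = 0.837), and it passed without SD control replicate 1 or 3 (-0.59 and -0.56, adjusted p = 0.0275 and 0.0384) or chimeric control replicate 5, and with normexp (-0.49, adjusted p = 0.0365), quantile normalization (-0.64, adjusted p = 0.0266) and the block shared across models (-0.53, adjusted p = 0.0389). Cyp2b3 was higher in chimeric mice on probe A_44_P205599, by 0.65 ± 0.125 (adjusted p = 4.87e-05), and not on probe A_64_P018626, at -0.22 ± 0.126 (adjusted p = 0.116). The first probe's signals before scaling overlapped, reaching 124000 in chimeric and 115000 in SD controls. The 75th percentiles subtracted were 216 to 318 and 414 to 460. Over the settings tried, single arrays left out apart, the 2 probes ran from 0.20 to 1.05 and from -0.90 to 0.18. The second probe came to pass, as lower, in 3 of them. Cyp2b15 was higher by 0.56 ± 0.179 (adjusted p = 0.00688), and its signals before scaling overlapped as well. That made 2 higher and 1 lower of 5 tested, in a comparison where 74.5% of 19209 probes tested differed (37% higher and 37.5% lower).

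On PB neither Cyp2b2 probe passed the test between the 2 kinds of animal. The differences, chimeric minus SD, were -0.41 ± 0.245 and 0.19 ± 0.222 (SE; adjusted p = 0.137 and 0.44), and the groups overlapped on both probes. These calls depended on the setting. Probe A_44_P311324 was lower in chimeric mice with normexp (-0.56, adjusted p = 0.0309), quantile normalization (-1.09, adjusted p = 0.000589), replicate numbers shared across models as a block (-0.56, adjusted p = 0.0178) and without chimeric PB replicate 5. Probe A_64_P006590 was higher with median centring (0.87, adjusted p = 0.000969). Cyp2b21 was lower in chimeric mice, with a difference of -1.34 ± 0.4 log2 units (adjusted p = 0.00399), and the highest chimeric value, 1.51, lay just below the lowest SD value, 1.54. With each array centred on its median the Cyp2b21 difference was -0.67 and missed the threshold (adjusted p = 0.117). Cyp2b3 was higher by 0.83 ± 0.124 on probe A_44_P205599 (adjusted p = 1.4e-06) and differed by 0.13 ± 0.126 on probe A_64_P018626 (adjusted p = 0.346). The count was 1 higher and 1 lower of 5 tested, beside 72.6% of 17661 probes tested (37.4% higher and 35.1% lower). Chimeric livers also gave lower readings of the Kupffer cell markers and held mouse cells of the host. The part of either in these level differences, or in the difference of responses above, was not tested. Chimeric and SD arrays also lay on separate slides, so model and slide cannot be told apart in these level differences.

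Ordered by level on probe A_64_P006590, Cyp2b2 stood at 8.65 ± 0.254 in chimeric PB, 8.46 ± 0.295 in SD PB, 1.49 ± 0.765 in SD control, 1.08 ± 0.318 in chimeric control, 0.78 ± 0.169 in CAR KO control and 0.62 ± 0.198 in CAR KO PB (mean ± SD, n = 4, or 7 for chimeric groups). The pair on top overlapped, as did each pair of neighbours among the other 4 groups, and the step between SD PB and SD control was the only gap. On probe A_44_P311324 the order was SD PB 6.98 ± 0.335, chimeric PB 6.57 ± 0.455, SD control 2.95 ± 0.18, CAR KO control 2.87 ± 0.0865, CAR KO PB 2.78 ± 0.117 and chimeric control 0.77 ± 0.605. Here the 3 rat groups without induction overlapped one another and chimeric controls lay below all of them. Cyp2b21 followed as SD PB 2.10 ± 0.453 and chimeric PB 0.75 ± 0.668, with the other 4 groups measured on 2 of 19 arrays.

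Of 7 neighbours of the Cyp2b genes on chromosome 1, 6 were tested in SD rats, where 1 rose and 1 fell, with a median log2 change of -0.21. Of all probes tested there, 2.42% rose and 1.72% fell. Cyp2g1, known from olfactory mucosa, rose with an approximate bound of 2.21-fold, with 0 of 4 control and 3 of 4 PB arrays measured (adjusted p = 0.0265). Cyp2t1 fell by 0.42 ± 0.1 log2 units (SE; adjusted p = 0.0311). The steroid hydroxylase genes Cyp2a1 and Cyp2a2 stood at -0.14 ± 0.107 and -0.28 ± 0.135, Cyp2f4 at -0.21 ± 0.0893 and Cyp2s1 at -0.20 ± 0.415, and these did not pass (adjusted p of 0.202 or more). Cyp2a3 was measured on 8 of 30 arrays and was not tested.

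In CAR KO rats 0 of 5 neighbours tested passed by limma, against 0.153% of all probes tested, and 1 had an unadjusted p under 0.05. In chimeric mice 1 of 5 rose, against 19.2% of all probes tested: Cyp2a1 rose by 0.46 ± 0.141 (SE; adjusted p = 0.017), and its response was larger than in SD rats by 0.59 ± 0.191 (adjusted p = 0.0313). Cyp2g1 was not measured on any chimeric array.

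**Figure D4:**
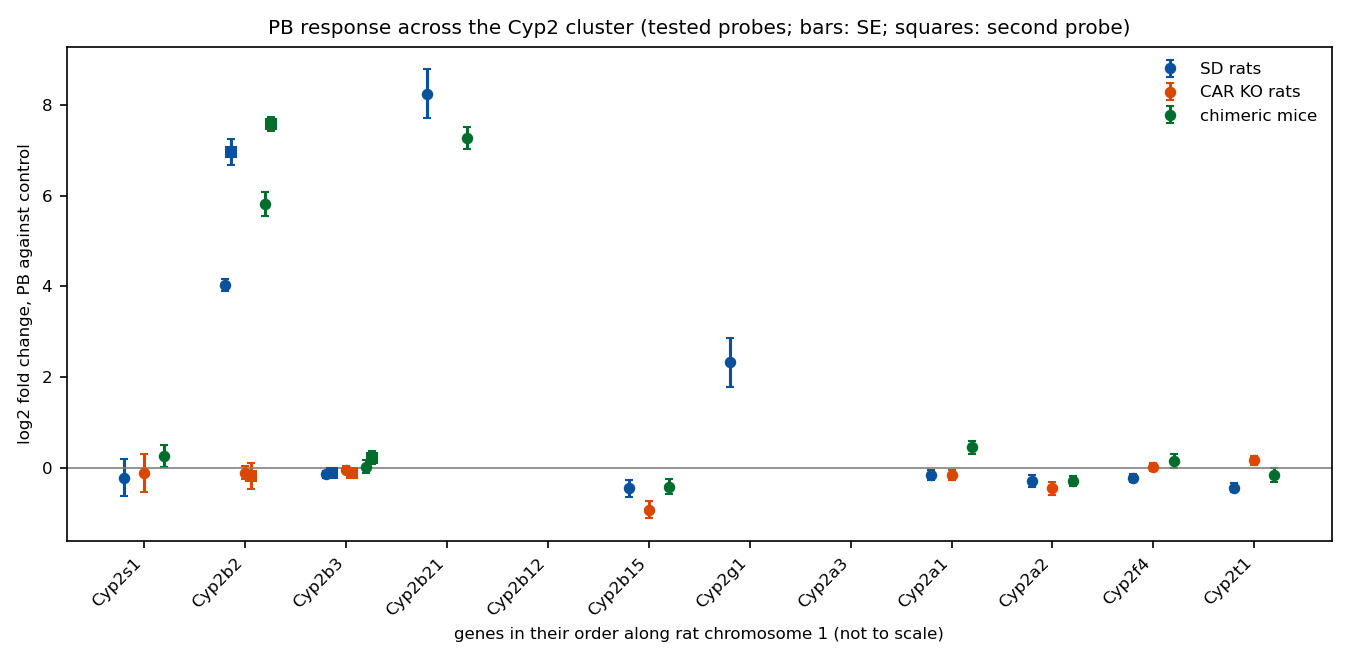
Fitted log2 change on PB (vertical axis, limma estimate with SE, squares for the other probe of a gene) of the tested Cyp2 genes in their order along chromosome 1 (horizontal axis, rank and not distance), in SD rats, CAR KO rats and chimeric mice. Cyp2b2 and Cyp2b21 stand out on either side of Cyp2b3, and Cyp2g1, at 2.33 in SD rats as fitted, has an approximate bound of 1.14.

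Genes known to work with Cyp2b enzymes or to share their inducer were counted in 3 further lists. Of 18 other CAR-responsive liver genes tested, 12 rose in SD rats and 0 fell (median log2 change 1.38). Of 17 tested in CAR KO rats 0 passed by limma (median 0.20). At an unadjusted limma p under 0.05, 4 were higher and 1 lower, with no share of all probes counted at that threshold. The response was lower in CAR KO than in SD rats for 8 of 18. In chimeric mice 13 of 18 rose and 0 fell (median 1.71). Of all probes tested, 2.42% rose in SD rats and 19.2% in chimeric mice. In CAR KO rats 0.153% passed in either direction, and 0.391% had a lower response there than in SD rats. Abcc3, an export pump for conjugates, rose in SD rats (adjusted p = 9.77e-07), with an approximate bound of 24.8-fold and no SD control array measured. Aldh1a1, which oxidises retinaldehyde, rose 20.7-fold (4.37 ± 0.451, SE; adjusted p = 8.4e-05), stood at 0.67 ± 0.452 in CAR KO rats (adjusted p = 0.502) and rose 5.24-fold in chimeric mice (adjusted p = 8.54e-09).

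Cytochrome P450 enzymes need electrons and heme. Of 15 electron and heme partners tested, 4 rose and 0 fell in SD rats (median 0.13). In CAR KO rats 0 passed by limma (2 at an unadjusted p under 0.05, median 0.06), against 0.153% of all probes tested. In chimeric mice 10 rose and 1 fell (median 0.63). Of all probes tested 2.42% rose in SD rats, and 19.2% rose and 22.5% fell in chimeric mice, where 1.06% passed in either direction with slide as a block. Por, the reductase that hands electrons to P450 enzymes, rose by 1.57 ± 0.175 log2 units in SD rats and by 2.97 ± 0.456 in chimeric mice (SE; adjusted p = 0.000169 and 0.000159), and stood at -0.18 ± 0.176 in CAR KO rats (adjusted p = 0.659). Its response was lower in CAR KO than in SD rats, with a difference of -1.75 ± 0.249 (adjusted p = 0.00495). Alas1, the rate-setting enzyme of heme synthesis, rose by 1.41 ± 0.197 and 1.82 ± 0.19 in the same 2 kinds of animal (adjusted p = 0.00117 and 1.05e-05). It stood at 0.49 ± 0.198 in CAR KO rats (adjusted p = 0.247). Of the 15 partners only Por passed the test of the response difference between CAR KO and SD rats, so the difference for Alas1 did not pass.

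Of 19 receptors, coregulators and kinase or phosphatase partners of CAR tested in SD rats 0 rose and 1 fell (median -0.12). Of all probes tested there, 2.42% rose and 1.72% fell. The 1 that fell was Nr1i2, the gene of the pregnane X receptor, by 0.39 ± 0.0961 log2 units (SE; adjusted p = 0.0362). In CAR KO rats 0 of 19 passed by limma (2 at an unadjusted p under 0.05, median -0.03), against 0.153% of all probes tested. In chimeric mice 1 rose and 2 fell of 18 (median 0.21), against 41.7% of all probes tested in either direction. Nr1i3 did not pass for PB in SD rats, at -0.63 ± 0.303 and -0.67 ± 0.324 on its 2 probes (adjusted p = 0.269 and 0.273).

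Over the 30 arrays, the level of Cyp2b2 probe A_44_P311324, the one with the higher mean, ran most nearly in parallel with that of Gsr, the glutathione reductase (Pearson r = 0.974), among 12590 probes of other named genes searched. Sgpl1, which cleaves sphingosine phosphate (0.96), the epoxide hydrolase Ephx1 (0.945), a probe of the heme-binding protein Pgrmc1 (0.941) and the clamp loader subunit Rfc2 (0.94) followed. The 5 genes most like Cyp2b21 were Gsr (0.937), the carboxylesterase Ces2c (0.923), Sgpl1 (0.922), Tmem97 (0.917) and the retromer subunit Vps26a (0.911). Gsr ranged from a mean of -0.85 in SD controls to 0.22 on PB, from -1.20 to -1.01 in CAR KO rats and from -1.45 to 0.20 in chimeric mice. These arrays share diets, models and slides, so r describes how the 6 groups line up and not a relation within a group.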

How the data were processed

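Per the file headers, each array was read with Agilent Feature Extraction 10.7.3.1. The intensity values deposited are the processed signals of that software, which subtracts background and removes spatial trends per array without scaling between arrays. The grid was annotated to rn4. The authors' series matrix holds log2 values that correlated with the log2 processed signal at r = 1 and served as an alternative. Their column medians ran from -4.20 to -3.36, and each column's offset matched the 75th percentile of its array within 0.014. The processing behind that table is otherwise not given in the sources used here.

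Of 62976 spots, 4259 control spots were left out, outlier spots were set missing, and log2 values were averaged over a probe's remaining spots, giving 30367 probes. Probes were named through transcript identifiers in a rat RefSeq table of GRCr8, used for names and gene order (18004 matched, 12363 did not). No spot was saturated (0 on all arrays). A probe entered a test if 75% or more of the arrays in any group compared had measured it. limma 3.58.1 (lmFit, eBayes) in R 4.3.3, with data.table (1.17.8), was fitted to the 16 rat arrays, the 14 chimeric arrays, or all 30 for comparisons across these, with an adjusted p threshold of 0.05 over all probes tested. Folds against a group with no array measured are approximate bounds, since a probe can fail to be measured above the lowest signal of another. There, each dim reading was raised to the lowest signal any measured probe had on its array, where it lay below that, before means were compared. Array number and brightness over background, not read depth, limit the precision.

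Groups and replicate numbers came from the sample titles, which call the arrays biological replicates. On data simulated for the SD comparison, 65% of 100 probes changed by 1 log2 unit and 96% of 100 changed by 2 were recovered. For the response difference between CAR KO and SD rats these shares were 32% and 84%. They were 85% and 98% for PB in chimeric mice, and 77% and 93% for chimeric against SD levels on control diet. The simulated noise was independent, with a spread per probe pooled over all groups, no slide effect and few changed probes. These shares may therefore not hold for the chimeric arrays. The members and lists were chosen with earlier results of these data known. Text names every Cyp2b probe, every neighbour, Nr1i3, up to 2 changed genes each way per other list by size in SD rats, and 5 genes most like Cyp2b2 and Cyp2b21. Alternatives tried were background correction, normalization, centring, source of values, filter, arrays in the fit, spread, array weights, blocks and each array left out. Normexp used the median spot signal.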

Additional observations from a re-analysis of the deposited data

Results flagged for a closer look

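Among the 42 sets of readings of 1 probe in 1 group, 4 had an array farther from the others than Dixon's 95% limit allows, and chance gives about 1 in 20. One was Cyp2b2 probe A_44_P311324 in SD control replicate 2 (3.21). The others were Cyp2b12 in chimeric control replicate 5 (-5.11), SD PB replicate 2 (-5.37) and CAR KO PB replicate 3 (-5.52), the 3 arrays on which that probe was well above background.

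The PB response differed between CAR KO and SD rats by -4.12 and -7.12 log2 units for the Cyp2b2 probes (adjusted p = 1.01e-07 and 5.05e-07, limma). For Cyp2b21 it passed too (adjusted p = 0.000604). Its fitted value of -7.25, which was -4.80 with normexp background correction, is no measured size, since no CAR KO control reading was well above background. The response of Cyp2b2 probe A_44_P311324 was larger in chimeric mice than in SD rats by 1.77 (adjusted p = 0.000962), and by 1.56 with slide as a block, where it did not pass (adjusted p = 0.323).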

How the results depend on the processing

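The 3 rises in SD rats, the 3 responses fitted as lower in CAR KO rats and the 3 lower levels of CAR KO rats on PB were 3 under every alternative run. Other counts of Cyp2b probes past the test moved, and the cause was not tested. For PB in CAR KO rats the count was 1 in place of 0 without the filter on dim probes and with array weights, and 0 to 1 with single arrays left out (1 without CAR KO PB replicate 1). Between CAR KO and SD rats on control diet it was 1 in place of 0 with normexp background and with median centring, and 0 to 1 with arrays left out (1 without SD control replicate 1 or 3). For PB in chimeric mice it was 5 in place of 3 with array weights, and 3 to 4 with arrays left out. For the response of chimeric mice against SD rats it was 2 with normexp, 3 with median centring, 3 with array weights and 0 with slide as a block, in place of 1, and 1 to 2 with arrays left out (2 without SD control replicate 2, the other being Cyp2b21 with no control measured). For levels in chimeric mice against SD rats it was 5 in place of 3 on control diet with normexp or quantile normalization, and 4 in place of 2 on PB with quantile normalization. There Cyp2b3 probe A_64_P018626 turned from 0.13 to -0.55 (adjusted p = 4.54e-06).

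Over 1134 values of single probes, 1093 kept direction and side of the threshold, counting 33 that changed sign while past the test in neither setting. Another 38 came to pass, 2 no longer passed and 1 turned. The labels tie replicate numbers to no shared animal or batch. Same-numbered arrays had deviations correlated at -0.09 to 0.08 in SD rats and -0.19 to 0.08 in CAR KO rats, and at 0.78, 0.49, 0.30 and 0.23 in 4 of 7 chimeric pairs and -0.21 to 0.06 in the other 3. Only 1 of 4, 1 of 4 and 3 of 7 pairs correlated best with their own number. The replicate block left the count for PB at 3 in SD rats, 0 in CAR KO rats and 3 in chimeric mice, and changed no Cyp2b call there. With numbers shared across models, the block gave 4 in place of 3 for chimeric mice against SD rats on control diet and 3 in place of 2 on PB.

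Counts over all probes moved more. For PB in SD rats 788 probes passed, against 202 with only the groups compared, 222 with all 30 arrays in 1 fit, 344 with the replicate block, 4035 without the filter and 436 to 751 with an array left out. For PB in CAR KO rats 30 passed, against 0 to 1948, and for the difference between these responses 95, against 28 with the block and 42 with all 30 arrays. Between CAR KO and SD rats, 6715 and 7718 passed on control and PB diet, against 2264 and 3223 with all 30 arrays. For PB in chimeric mice 6668 passed, against 170 with slide as a block and 238 within slide 1, and for their response against SD rats 3456, against 34 with the block and 6932 with array weights. Median centring raised the median change over all probes in chimeric mice from 0.07 to 0.35, and the share of higher among changed probes from 46.1% to 72%. The same share moved from 34.2% to 68.9% for the response against SD rats, from 49.7% to 66.5% and 51.6% to 77.8% for levels on control and PB diet, and from 30% to 57.6% and 17.9% to 28.8% for the CAR KO response and its difference from SD rats. With normexp it moved from 49.7% to 69.1% and from 51.6% to 69.7% for those levels, from 40.4% to 25.6% between CAR KO and SD rats on control diet and from 30% to 41.9% for the CAR KO response, and with hepatocyte marker centring from 34.2% to 60.2% for the chimeric response against SD rats. The median over all probes of chimeric minus SD levels moved with median centring from -0.02 to 0.38 on control diet and from -0.03 to 0.65 on PB, and with normexp to 0.24 and 0.21. Cyp2b21, Cyp2b12 and Cyp2b15 are limited by signal over background.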
